A study of Homo sapiens with 6 samples.

Results

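The genes that move and store zinc were followed in NB4 cells, an established acute promyelocytic leukemia cell line. Members were chosen by symbol alone: 10 SLC30A genes (zinc exporters), 14 SLC39A genes (zinc importers), 12 metallothioneins (MT1 followed by 1 letter, MT2A, MT3 and MT4) and MTF1. They make up 37 of the 23368 gene symbols listed, and 22 of them passed the filter on low counts and were tested. NB4 cells were either left not treated (n.t.) or exposed to 10 µM maltonis, a synthetic hydroxypyrone derived from maltol, and RNA was collected after 24 h. Ribosomal RNA was depleted from total RNA, stranded libraries were sequenced, and each group holds 3 libraries described as biological replicates of this single line. The comparison holds no vehicle-treated group and 1 dose.

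Zinc is held at a narrow free concentration inside cells. SLC30A proteins (also called ZnT) carry it out of the cytoplasm, to the outside or into organelles, and SLC39A proteins (ZIP) carry it into the cytoplasm. Metallothioneins are small cysteine-rich proteins that bind zinc and copper, and MTF1 is the zinc-sensing transcription factor that binds metal response elements in the promoters of metallothionein genes and of SLC30A1.

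The promoters of MT2A, MT1X and SLC30A1 are shown because these genes fell after maltonis, as given below, and that of MT1H because it held most elements while the gene had no counts. Each line is the 250 bases before the annotated start (RefSeq, GRCh38.p14), and capitals mark metal response element cores, TGCACNC or TGCGCNC on either strand. MT2A lies at chr16:56608334-56608583, MT1X at chr16:56682220-56682469 and MT1H at chr16:56669564-56669813, all on the plus strand, and SLC30A1 at chr1:211579162-211579411 on the minus strand.
MT2A: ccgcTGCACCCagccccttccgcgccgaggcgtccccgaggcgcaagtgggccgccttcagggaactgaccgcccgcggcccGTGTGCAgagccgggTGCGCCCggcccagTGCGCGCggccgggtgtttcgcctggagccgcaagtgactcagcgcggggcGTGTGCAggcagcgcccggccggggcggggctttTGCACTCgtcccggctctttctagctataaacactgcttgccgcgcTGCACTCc
MT1X: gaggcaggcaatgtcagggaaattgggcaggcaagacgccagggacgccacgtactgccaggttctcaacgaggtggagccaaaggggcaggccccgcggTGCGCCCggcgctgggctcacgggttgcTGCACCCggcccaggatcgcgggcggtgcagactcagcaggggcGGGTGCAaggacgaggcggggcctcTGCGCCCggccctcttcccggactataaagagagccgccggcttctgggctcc
MT1H: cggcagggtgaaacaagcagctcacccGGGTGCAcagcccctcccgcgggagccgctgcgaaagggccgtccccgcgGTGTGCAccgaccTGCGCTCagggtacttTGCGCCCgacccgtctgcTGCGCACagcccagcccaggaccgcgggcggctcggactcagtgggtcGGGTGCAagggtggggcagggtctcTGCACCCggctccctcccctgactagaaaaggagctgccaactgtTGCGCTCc
SLC30A1: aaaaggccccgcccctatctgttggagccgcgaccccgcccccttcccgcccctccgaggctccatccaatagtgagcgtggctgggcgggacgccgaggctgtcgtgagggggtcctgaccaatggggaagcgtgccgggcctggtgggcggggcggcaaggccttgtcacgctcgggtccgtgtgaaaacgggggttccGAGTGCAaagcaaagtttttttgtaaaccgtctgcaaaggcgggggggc

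In these windows MT2A held 7 cores, MT1X 4, MT1H 8 and SLC30A1 1. RefSeq promoter windows were found for 27 of the 37 members, 36 windows in all since some genes have several starts, and the other 10 members (MT1A, MT1E, MT1F, MT1G, MT1L, MT1M, MT3, SLC30A8, SLC39A4 and SLC39A14) were not searched. At least 1 core was present in 16 of the 36 windows (44.4%), against 8719 of all 35116 promoter windows of the same length (24.8%). All 5 metallothionein windows searched held 3 or more cores, compared with 1.58% of all windows. Among transporters, 6 of 11 exporter windows and 5 of 19 importer windows held a core. No core was found in the windows of MTF1, SLC39A7 and SLC39A10, apart from 1 after the second annotated start of SLC39A10. These are matches of letters and not measured binding. MT1H, MT1B and MT4, with 8, 3 and 3 cores, had 0 counts in all 6 libraries, so cores in a window were found both at genes with reads and at genes without. Of the tested members with a core before a start, MT2A and SLC30A1 were lower after maltonis. MT1X also had lower counts, but it passed the filter on low counts only through its n.t. libraries. Its call is therefore not read as a result. SLC30A6, SLC39A6 and SLC39A13 were higher, and SLC39A1, SLC39A3 and SLC39A8 did not pass the threshold given below. A link between cores and the direction of change was not tested.

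**Figure D1:**
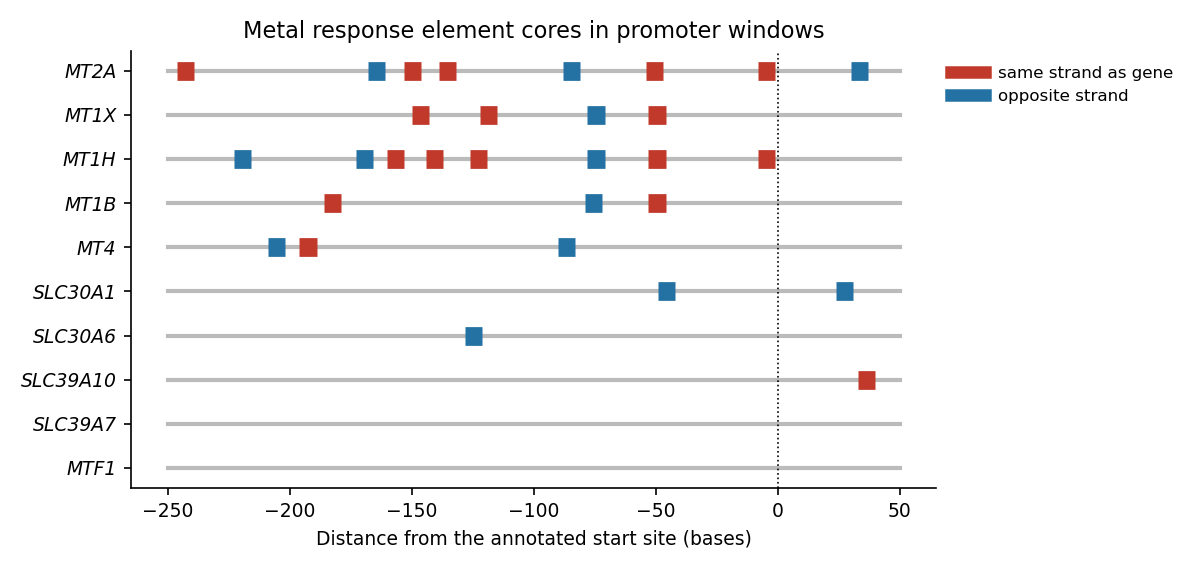
Positions of metal response element cores (TGCACNC or TGCGCNC) in 300-base promoter windows, in bases from the annotated start (dotted line), red on the strand of the gene and blue on the opposite strand. MT2A and MT1H carry cores along the window, SLC30A1 carries 1 before the start and 1 after it, and SLC39A7 and MTF1 carry none.

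Libraries held between 18492154 and 38205483 counts, and 3 counts, used as the floor of detection, equal 0.0785 to 0.162 CPM, the unit of counts after scaling for library size. This floor and the intervals below cover counting error only. Replicates of a group differed by more than sampling noise (chi-square per degree of freedom between 4.33 and 35 over all pairs), so that all were kept as separate samples. Of 9 myeloid markers, 8 exceeded 1 CPM in every library, ELANE being the exception with 3, 6 and 2 counts in n.t. and 406, 565 and 409 in treated libraries, while 3 of 3 erythroid markers stayed at 1 count or less. Summed myeloid markers lay between 14103 and 16536 CPM in n.t. and between 8786 and 9288 CPM in maltonis-treated libraries. Most of this sum was MPO, at 12887 to 15522 and 7296 to 7551 CPM, and CD33, CEBPA and SPI1 also lay lower in treated libraries. CTSG went the other way, from between 103 and 113 to between 538 and 575 CPM, and ELANE, PRTN3, AZU1 and CSF3R also lay higher in treated libraries. The 3 T cell markers summed to 42.9 to 44.9 and 15.2 to 15.9 CPM, nearly all of it CD3D, with CD3E at 2 counts or less. The 3 B cell markers summed to 2.08 to 3.25 and 1.14 to 1.28 CPM with MS4A1 at 0, and the 3 epithelial markers to 18.6 to 20.4 and 15.6 to 16.7 CPM with CDH1 at 0. The part of these markers in the changes below was not tested. The names of the count tables carry a code of unstated meaning that parts replicate 1 (code A) from replicates 2 and 3 (code B), and both codes hold both groups. In bulk RNA, fewer cells with a transcript and less transcript per cell cannot be told apart.

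Metallothionein RNA was much lower after maltonis. Summed over the 12 genes, it stood at 82.7, 72.3 and 70 CPM in n.t. replicates 1, 2 and 3 and at 5.47, 4.41 and 4.90 CPM in maltonis-treated ones. The groups did not overlap, with means of 75 ± 6.8 and 4.93 ± 0.53 CPM (SD, n = 3), a ratio of 15.2. These sums rest on 1554, 2619 and 2322 counts without treatment and on 106, 148 and 138 with it, so the treated values carry the larger counting error.

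MT2A, the most abundant metallothionein in these cells, was measured at 49.4, 41.9 and 40.1 CPM in n.t. and at 3.82, 2.12 and 3.19 CPM in maltonis-treated libraries. All treated values lay far below all n.t. values. Its log2 fold change was −3.88, with a standard error (SE) of 0.182 and an adjusted p of 2.94e-07 (quasi-likelihood test of edgeR, Benjamini-Hochberg adjustment over all 13209 genes tested, as for each adjusted p below), with log2 differences of −3.68 within code A and −3.97 within code B. The pooled counts gave an n.t. to maltonis ratio of 14.8 (95% interval 13 to 16.9). An exact permutation test (two-sided) of the 6 values gave p = 0.1, and with 3 libraries a group no smaller p can be reached.

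MT1F had the smallest change of the tested metallothioneins. It was at 5.70, 5.99 and 5.76 CPM in n.t. libraries, against 1.50, 1.94 and 1.60 CPM in treated ones, without overlap between the groups. The log2 fold change was −1.77 (SE 0.136, adjusted p = 4.58e-06), and −1.91 and −1.73 within codes A and B. MT2A and MT1F were the metallothioneins that passed the low-count filter, 3 libraries above about 0.337 CPM, in both groups.

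MT1X had 341, 625 and 528 counts in n.t. libraries and 1, 12 and 1 counts in maltonis-treated ones, or 18.2, 17.2 and 15.9 CPM against 0.0516, 0.358 and 0.0355 CPM. Replicate 2 held 12 of the 14 treated counts and the other treated libraries were below the floor. The log2 fold change was −6.60 (SE 0.328), within-code differences were −7.88 and −6.88, and without maltonis replicate 2 the log2 fold change was −8.54. The ratio of pooled counts was 98.1 (95% interval 58.3 to 180).

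MT1G was counted 113, 169 and 170 times in n.t. libraries and 0, 0 and 1 times after maltonis. MT1E was counted 50, 73 and 86 times and then 2, 0 and 1 times. In both genes every n.t. library was above the floor and every treated library below it. The pooled ratios were 416 for MT1G (95% interval 74.2 to 16451) and 64.1 for MT1E (21.6 to 313), so the size of these falls is loosely bounded. The fitted log2 fold changes, −8.28 (SE 0.401) and −5.85 (SE 0.456), depend on the handling of zero counts. Single libraries moved them. MT1G ran from −7.69 without maltonis replicate 2 to −10.21 without maltonis replicate 3, and MT1E from −5.17 without maltonis replicate 2 to −6.90 without maltonis replicate 1. MT1E, MT1G and MT1X passed the filter only through their n.t. libraries so that a difference was built into their passing. Neither their test calls nor a count over the metallothioneins tested is read as a result.

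MT1L, annotated as a transcribed pseudogene, was below the filter. It had 13, 12 and 15 counts in n.t. and 0, 0 and 0 in treated libraries. This was at least 12.3-fold lower when the floor of 3 counts is taken over the treated group. MT1A (1, 2 and 0 counts without treatment) and MT3, the brain form (1 count in each n.t. library), had no counts after maltonis and were too low to compare. MT1B, MT1H, MT1M and MT4 had no counts in any library. Of the metallothionein pseudogenes outside the rule, MT1DP had 2 counts in n.t. replicate 3 and no others, and MT1IP and MT1JP had none.

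**Figure D2:**
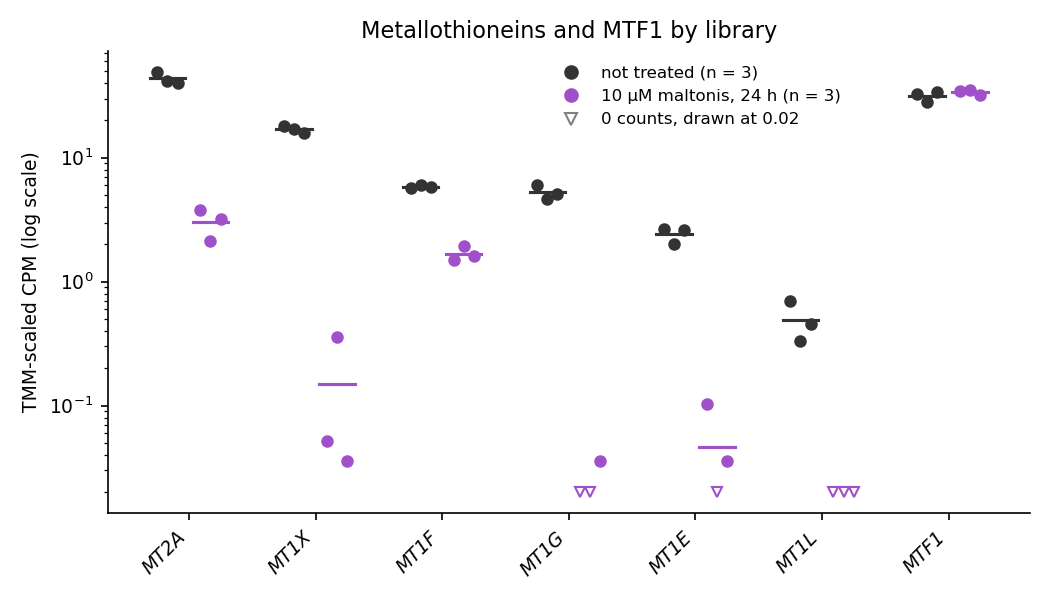
TMM-scaled CPM (log scale) of the metallothioneins with more than 3 counts and of MTF1 in each library; bars are group means and open triangles are libraries with 0 counts, drawn at 0.02. Black (n.t.) and purple (maltonis) points do not overlap for MT2A and MT1F, and they overlap for MTF1. Of all genes tested, 37.8% lay lower after maltonis without overlap. MT1E, MT1G and MT1X passed the low-count filter only through their n.t. libraries, and MT1L did not pass it. The separation of their points is therefore not read as a result.

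The make-up of the remaining metallothionein counts differed from that without treatment. Shares of counts are not scaled by gene length, so they do not rank the genes by level. MT1F took 6.89%, 8.29% and 8.23% of the metallothionein counts in n.t. replicates 1, 2 and 3 (exact 95% intervals within 5.68% to 9.42%) and 27.4%, 43.9% and 32.6% in treated ones (intervals within 19.1% to 52.3%). MT1X took 21.9%, 23.9% and 22.7% and then 0.943%, 8.11% and 0.725%, the intervals of the treated libraries reaching at most 13.7%. Shares of MT2A overlapped, at 59.7%, 58% and 57.3% against 69.8%, 48% and 65.2%. The MT1F share was thus higher in all 3 treated libraries than in any n.t. library, and the MT1X share lower. Metallothionein genes share sequence, and how the counting divided shared reads is not stated. Of all 50-base stretches of their RefSeq-linked transcripts, the share found also in another metallothionein was 3.27% for MT1F, 4.88% for MT2A, 7.42% for MT1E, 16% for MT1X and 17.6% for MT1G.

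**Figure D3:**
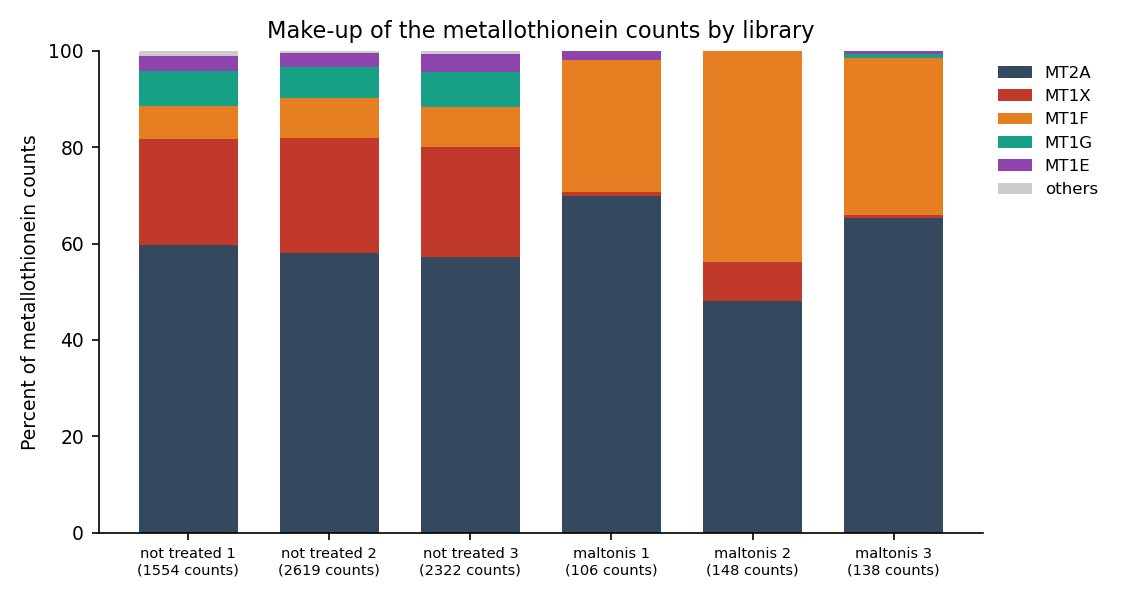
Percent of the metallothionein counts of each library taken by MT2A, MT1X, MT1F, MT1G, MT1E and the other members, with the number of metallothionein counts under each bar. MT1F takes 27.4% to 43.9% of the bar in maltonis-treated and 6.89% to 8.29% in n.t. libraries.

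MTF1 RNA did not pass the test. It was at 32.9, 28.3 and 34.0 CPM in n.t. and at 34.8, 35.5 and 32.1 CPM in treated libraries, and the groups overlapped. The log2 fold change was 0.11 (SE 0.0884, adjusted p = 0.297), 0.08 within code A and 0.12 within code B, and the exact permutation test (two-sided) gave p = 0.3. RNA levels do not measure the activity of the factor.

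SLC30A1, the exporter at the plasma membrane, fell. It was at 36.4, 37.1 and 36.4 CPM in n.t. and at 8.72, 7.63 and 8.34 CPM in maltonis-treated libraries, a tight pair of groups without overlap. The log2 fold change was −2.16 (SE 0.0792, adjusted p = 9.46e-08), with −2.06 and −2.20 within codes A and B, and the exact permutation p was 0.1. Its promoter is the one shown above with a single core.

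The other exporters with reads had smaller changes. Of the 10 exporters 5 were tested, and at a false discovery rate (FDR) under 0.01 SLC30A6 was higher and SLC30A1 lower, against 31.9% of all genes tested that were higher and 32.1% that were lower. SLC30A1 was also the only exporter past a fold change of 2.5, a criterion met by 9.96% of all genes upward and 10.4% downward. Their median log2 fold change was −0.04, beside 0.01 over all genes tested. SLC30A5 and SLC30A6 form a heteromer that supplies zinc to enzymes of the secretory pathway. SLC30A5, the most abundant exporter per length, was at 118, 117 and 109 CPM and then at 106, 113 and 116 CPM, groups that overlapped, with a log2 fold change of −0.04 (adjusted p = 0.582) whose sign turned with the scaling. SLC30A6 rose from between 73.1 and 82.3 CPM to between 105 and 107 CPM, a log2 fold change of 0.48 (SE 0.0651, adjusted p = 1.67e-04). SLC30A7, another transporter of the secretory pathway, and SLC30A9, which serves mitochondria, had log2 fold changes of 0.14 and −0.20 (adjusted p = 0.0862 and 0.0136) and were not called. SLC30A2 and SLC30A8, the latter known from insulin granules, had no counts, and SLC30A3, SLC30A4 and SLC30A10 had at most 2 in any library.

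Levels of different transporters were compared only per length, as counts scaled by gene length and library size (RPKM). In n.t. cells the exporters stood in the order SLC30A5 (22.7 ± 0.983 RPKM, SD, n = 3), SLC30A9 (21.8 ± 0.385), SLC30A6 (14.6 ± 1.01), SLC30A7 (8.66 ± 0.444) and SLC30A1 (6.69 ± 0.0728). The first 2 differed by less than their spread. After maltonis SLC30A6 (20.3 ± 0.222) stood above SLC30A9 (18.9 ± 1.05), and SLC30A1 (1.50 ± 0.101) remained lowest, now well below SLC30A7 (9.52 ± 0.398).

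Importers moved in both directions, with the largest changes in SLC39A7 and SLC39A14. Of the 14 importers 11 were tested, and 5 were higher and 2 lower at an FDR under 0.01, shares that can be read beside the 31.9% and 32.1% over all genes. One importer in each direction also passed the fold criterion (9.96% and 10.4% of all genes). Groups did not overlap for 6 importers in the upward and 4 in the downward direction, against 38.8% and 37.8% of all genes tested. Their median log2 fold change was 0.22.

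SLC39A7, which releases zinc from the endoplasmic reticulum and Golgi into the cytoplasm, rose. It was at 120, 148 and 143 CPM in n.t. and at 368, 375 and 379 CPM in maltonis-treated libraries, with no overlap and with n.t. replicate 1 lowest. The log2 fold change was 1.45 (SE 0.0822, adjusted p = 8.01e-07), 1.62 within code A and 1.37 within code B. An exact permutation test of the 6 values gave p = 0.1. Per length it was the most abundant importer in both groups, at 55.7 ± 6.10 RPKM without and 152 ± 2.10 RPKM with treatment (SD, n = 3).

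SLC39A14, a transporter at the cell surface that also carries iron and manganese, fell. It was at 188, 174 and 172 CPM in n.t. and at 59.4, 61.7 and 62.5 CPM in treated libraries, and no values of the groups overlapped. The log2 fold change was −1.54 (SE 0.0613, adjusted p = 1.39e-07), with −1.67 and −1.48 within codes A and B and an exact permutation p of 0.1. Its close relative SLC39A8, with the same substrates, was at 222 to 235 CPM in n.t. and 191 to 209 CPM in treated libraries, a log2 fold change of −0.19 that was not called (adjusted p = 0.0156). It was called by DESeq2, with the replicate block, with the library code as a term, in code B alone and without n.t. replicate 1, at adjusted p between 0.00250 and 0.00803.

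SLC39A10, a plasma membrane importer whose gene is known to be repressed by MTF1, rose. It was at 140, 149 and 152 CPM without and at 239, 261 and 265 CPM with maltonis, again without overlap. Its log2 fold change was 0.80 (SE 0.0641, adjusted p = 6.20e-06), 0.77 and 0.81 within codes A and B, with an exact permutation p of 0.1. SLC39A6, its partner in a heteromer, was at 66.1 to 81.0 CPM in n.t. and 97.1 to 103 CPM in treated libraries, a log2 fold change of 0.44 (adjusted p = 0.00102).

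Among the remaining importers, SLC39A13, a transporter of intracellular vesicles, was higher by a log2 fold change of 0.75 (adjusted p = 2.28e-04). SLC39A9 was higher by 0.25 on the log2 scale (adjusted p = 0.00447), a call that was lost without n.t. replicate 2 or 3 or maltonis replicate 2 or 3, at adjusted p between 0.0146 and 0.0294 from edgeR. SLC39A4, best known from zinc uptake in the intestine, was low and lower after treatment, at 5.80, 3.31 and 3.50 CPM against 2.17, 1.28 and 1.63 CPM. Its log2 fold change was −1.31 (SE 0.272, adjusted p = 0.00218), and −1.15 without maltonis replicate 2, where the call was lost (adjusted p = 0.0108). The log2 fold changes of SLC39A1, SLC39A3 and SLC39A11 were 0.22, −0.02 and −0.18, and none was called (adjusted p = 0.0147, 0.926 and 0.0292). SLC39A1 was called under 7 alternatives at the same threshold, with log2 fold changes from 0.22 to 0.34: total counts, upper quartile, DESeq2, the replicate block, the code as a term, code B alone and without n.t. replicate 1. SLC39A2, SLC39A5 and SLC39A12 were not tested, with at most 3, 13 and 0 counts in any library.

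The order of the importers per length changed with treatment. In n.t. cells SLC39A7 was followed by SLC39A8 (39.0 ± 1.08 RPKM, SD, n = 3), SLC39A14 (34.9 ± 1.73), SLC39A1 (31.9 ± 2.26), SLC39A11 (28.0 ± 1.58), SLC39A9 (26.6 ± 1.45), SLC39A10 (26.3 ± 1.11), SLC39A6 (20.2 ± 2.05) and SLC39A3 (15.7 ± 2.87), with SLC39A13 (3.22 ± 0.403) and SLC39A4 (1.62 ± 0.535) far below. SLC39A9 did not differ from SLC39A11 or from SLC39A10 beyond their spread. After maltonis SLC39A7 was followed by SLC39A10 (45.6 ± 2.57), SLC39A1 (37.2 ± 0.847), SLC39A8 (34.2 ± 1.58), SLC39A9 (31.6 ± 0.520), SLC39A6 (27.3 ± 0.860), SLC39A11 (24.7 ± 0.498), SLC39A3 (15.5 ± 1.91) and SLC39A14 (12 ± 0.322). SLC39A14 thus stood between SLC39A8 and SLC39A1 without treatment and between SLC39A3 and SLC39A13 (5.47 ± 0.249) with it. For comparison on the same scale, MT2A stood at 55.8 ± 6.26 RPKM in n.t. cells and at 3.87 ± 1.10 RPKM after maltonis, and MT1X at 38 ± 2.5 and 0.330 ± 0.404 RPKM, the latter 0.0968 without maltonis replicate 2. These levels depend on the length used: with all annotated exons, n.t. levels were 33.7 RPKM for MT2A, 9.65 for MT1X and 48.1 for SLC39A7.

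**Figure D4:**
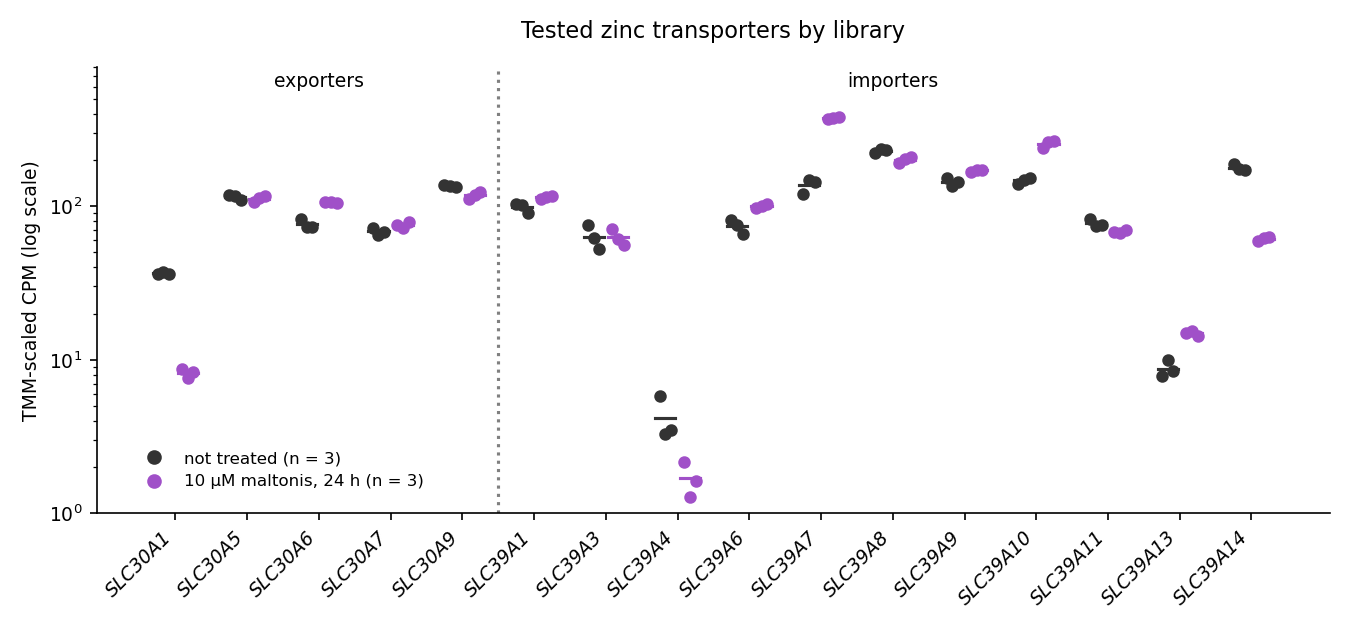
TMM-scaled CPM (log scale) of the 5 exporters and 11 importers tested, in each library; bars are group means. SLC30A1 and SLC39A14 lie lower and SLC39A7 and SLC39A10 higher in all 3 maltonis-treated libraries, while the groups overlap for SLC30A5 and SLC39A3.

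**Figure D5:**
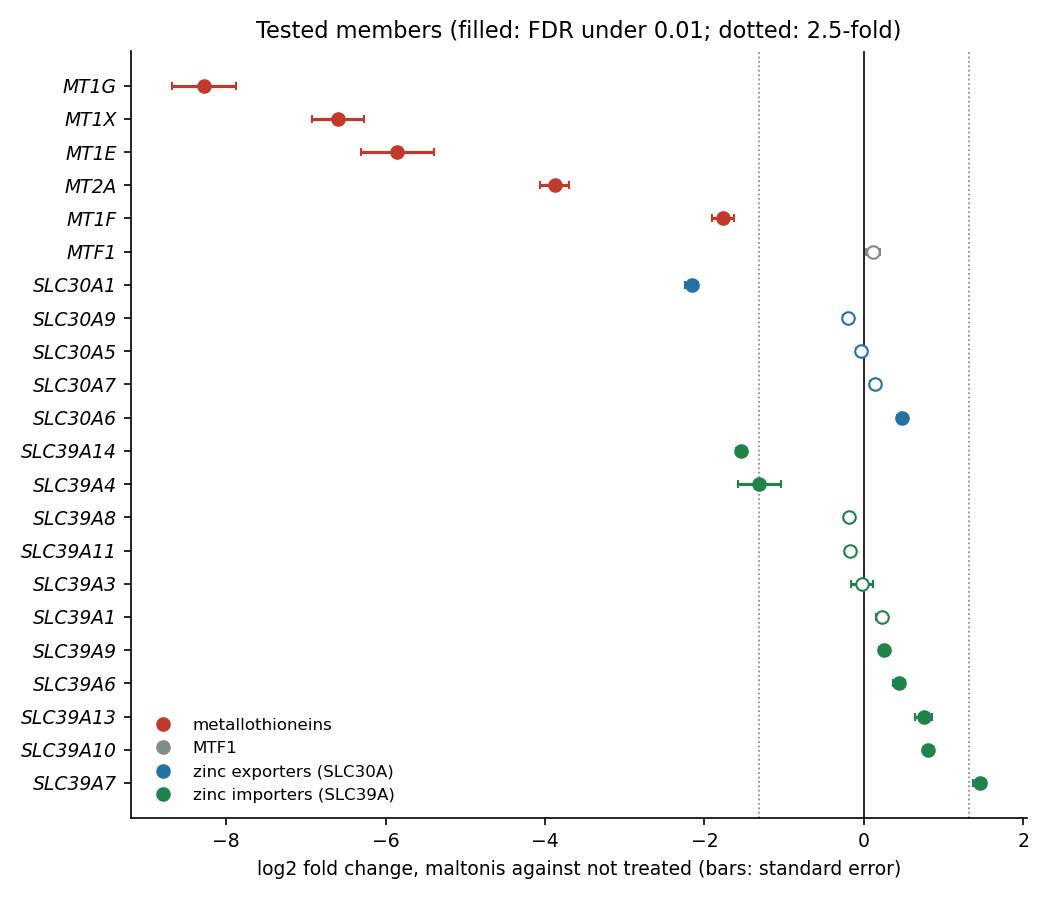
Log2 fold change of the 22 tested members (maltonis against n.t.) with their SE; filled points passed an FDR under 0.01 and dotted lines mark a 2.5-fold change. Metallothioneins lie at −1.77 or lower, SLC30A1 at −2.16, and importers between −1.54 and 1.45. MT1E, MT1G and MT1X passed the low-count filter only through their n.t. libraries, so their filled points are not read as results.

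Genes outside the rule that handle zinc were examined next. Of 13 such genes 11 were tested, and 4 were higher and none lower, beside 31.9% and 32.1% of all genes tested; 7 were higher when counts were scaled by total counts or the upper quartile. Of the 4, S100A8 and TMEM163 passed the filter only through their treated libraries, so a difference was built into their passing and the count is not read as a result. S100A8 and S100A9 together form calprotectin, a zinc-binding protein of myeloid cells. S100A8 had 11, 11 and 7 counts in n.t. and 111, 122 and 149 counts in treated libraries, and TMEM163, a vesicular zinc transporter, had 2, 1 and 3 and then 13, 28 and 12. Both genes were higher in every treated library than in any n.t. library, which for the same reason is not read as a result. Of all genes tested, 38.8% lay higher after maltonis without overlap. S100A9, which passed in both groups, rose by 1.60 on the log2 scale (SE 0.129, adjusted p = 6.25e-06), and MCOLN1, a lysosomal cation channel, by 1.89 (SE 0.167, adjusted p = 1.11e-05). The CBWD genes, near-identical zinc chaperones whose reads are hard to assign, were not called.

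Of 10 listed regulators of metallothionein promoters, MTF1 included, SP1 and USF1 rose by 1.40 and 1.14 on the log2 scale, the glucocorticoid receptor NR3C1 and USF2 had log2 fold changes of −1.08 and −0.40, and 6 were not called (median 0.12). The 2 higher and 2 lower genes stand beside 31.9% and 32.1% of all genes tested, and 4 regulators were higher with total counts, the upper quartile, the library code as a term or an FDR under 0.05. SP1 went from a mean of 193 to 510 CPM (SE 0.0926, adjusted p = 1.86e-06).

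Of 6 other reported MTF1 targets, 3 were higher and 2 lower (median 0.53), beside 31.9% and 32.1% of all genes tested. SLC40A1, the iron exporter ferroportin, went from a mean of 31.1 to 8.27 CPM, a log2 fold change of −1.91 (SE 0.102, adjusted p = 5.98e-07), and GCLC, an enzyme of glutathione synthesis, had a log2 fold change of −0.74 (adjusted p = 1.28e-04). PGF, a growth factor, rose by 1.30 from 0.470 CPM, a call lost without n.t. replicate 2 (adjusted p = 0.0111), and the heat shock genes HSPA1A and HSPA1B, near-identical copies whose reads cannot be assigned with certainty, rose by 1.06 and 0.96.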

How the data were processed

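RNA of NB4 cells was measured in 6 libraries, 3 for each condition. Whole-number HTSeq counts per gene symbol were deposited for every library by the authors, without normalization, and no row lacked a gene. The submitters' notes name TopHat, Bowtie2 and hg19, while versions, annotation and the strand setting are not given in the sources used here, so overlapping and antisense genes are uncertain. Members and lists were chosen with earlier results of these data known.

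Counts were scaled by the trimmed mean of M-values (TMM), filtered with filterByExpr (at least 10 counts in a library of median size) and tested in R 4.3.3 with edgeR 4.0.16, quasi-likelihood test, no covariates, Benjamini-Hochberg adjustment over 13209 genes. Code differences are of log2 CPM with an offset of 0.5 counts. Lists were described by counts and medians. Lengths are RefSeq-linked exons of GENCODE 29. Ratio intervals are exact, from pooled counts and scaled library sizes. Named were all members, with values per library for tested metallothioneins and MTF1, transporters past both thresholds, SLC30A1, SLC39A10 and the most abundant transporters, and from other lists up to 4 genes past both; further genes complete small counts or concern levels and were chosen after their values were seen. Promoters were searched in Python 3.11.15. Alternatives covered scaling, test (DESeq2 1.42.0 included), filter, block, code and each library left out. The test was first run on simulated counts. ChIP-seq and mass spectrometry were not analysed here, and 1 gene of a list is not reported here.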

Additional observations from a re-analysis of the deposited data

How the results depend on the processing

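Over the 22 tested members, 341 of 374 alternative values kept direction and call. MT2A, MT1F, SLC30A1, SLC39A7, SLC39A10 and SLC39A14 kept theirs in every alternative run. So did MT1E, MT1G and MT1X, whose passing of the filter had a difference built in, and the 341 values include 17 of each. The FDR under 0.05 was read from the main fit, so direction could not change there. Scaling by total counts shifted the median log2 fold change of all genes by 0.12, and changes of that size are relative to the scaling. Medians of the lists then stood at 0.08 for exporters, 0.34 for importers and −0.05 for copper genes. For regulators the median was 0.24, for other MTF1 targets 0.64 and for genes flanking the metallothionein cluster 0.01. SLC30A5 and SLC39A3, not called, turned sign, to 0.08 and 0.10 with total counts, 0.05 and 0.07 with the upper quartile and 0.01 and 0.03 in code B alone; SLC39A3 also ran from −0.14 to 0.11 with a library left out. Exporters called higher were 2 with total counts, and those called lower were 2 with DESeq2's Wald test, the library code as a term or an FDR under 0.05, and between 1 and 2 with a library left out. Importers called lower were 4 at an FDR under 0.05 and between 1 and 3 with a library left out. Copper genes called lower were 3 with total counts or the upper quartile and between 3 and 6 with a library left out. Other zinc handling genes called higher were 7 with total counts or the upper quartile. Regulators called higher were 4 with total counts, the upper quartile, the library code as a term or an FDR under 0.05. With all annotated exons as length, n.t. and maltonis RPKM were 19.8 and 19.3 for SLC30A5, 48.1 and 131 for SLC39A7 and 33.7 and 2.34 for MT2A, and 9.65 for MT1X in n.t. cells; total counts put SLC39A7 at 159 after maltonis. MT1X RPKM after maltonis ran from 0.0968 to 0.455 with a library left out. Over the whole 300 bases, 29.6% of all promoters held a core. Replicate numbers were also fitted as a block. Deviations of same-numbered libraries correlated at 0.257, 0.0696 and 0.133, and 4 of 6 libraries correlated best with their own number. These values do not settle whether the numbers are pairs, and the main test used no block. With the library code as a term, 4731 genes were higher and 4743 lower, against 4213 and 4239 in the main test. The block gave 4602 higher and 4620 lower genes and, among members, changed only the calls of SLC39A1 and SLC39A8 (adjusted p = 0.00889 and 0.00803 from edgeR). Depth limits the size of the fall of MT1X, MT1G, MT1E and MT1L.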

Other observations

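Copper is the other metal bound by metallothioneins. Of 16 copper handling genes 14 were tested, of which 3 were called higher and 6 lower (FDR under 0.01), at a median log2 fold change of −0.17, beside 31.9% higher and 32.1% lower of all genes tested. The lower genes were 3 with total counts, the upper quartile or without n.t. replicate 2, and the higher genes 2 without maltonis replicate 3, where COX19 was lost. ATP7A, the copper exporter of the secretory pathway, rose from a mean of 7.15 to 27.6 CPM, a log2 fold change of 1.94 (SE 0.114, adjusted p = 9.45e-07, edgeR, adjusted over all genes tested). COMMD1, a partner of copper transporters, went from 45.3 to 9.93 CPM (log2 fold change −2.18, SE 0.103) and STEAP3, a metal reductase, from 26.0 to 8.08 CPM (−1.69, SE 0.0884). The related exporter ATP7B (log2 fold change 0.01, adjusted p = 0.958 from edgeR) and the importer SLC31A1 (0.24, adjusted p = 0.0388 from edgeR) were not called.

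The 12 metallothionein genes lie within 119.1 kb on chromosome 16. Of the 16 nearest listed genes on both sides, 10 were tested, 4 were higher and 5 lower, beside 31.9% and 32.1% of all genes tested, with a median log2 fold change of −0.11. Among those lower, CPNE2 had a log2 fold change of −1.78 (SE 0.115), NUP93, a nuclear pore subunit, −1.34 (SE 0.0587), OGFOD1 −0.49 and NUDT21 −0.42. BBS2, a cilium gene next to the cluster, rose by 1.26, and HERPUD1 and NLRC5 by 0.41 and 0.38. FAM192A was called at a log2 fold change of 0.20 (adjusted p = 0.00956 from edgeR), but this call was lost whichever library was left out, which leaves 3 higher genes. CETP was tested and not called. It passed the low-count filter only through its treated libraries, so a difference was built into its passing. The median of the flanking genes includes it.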
